A study of Mus musculus with 25 samples.

Results

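A set of 10 genes, of the enzyme systems that macrophages use to cut extracellular matrix, was followed, picked by symbol from each of the 2 expression tables of the study. They are 5 matrix metalloproteinases (Mmp2, Mmp12, Mmp13, Mmp14 and Mmp19), 3 tissue inhibitors of metalloproteinases (Timp1, Timp2 and Timp3), the urokinase plasminogen activator Plau and its receptor Plaur. All 10 were found in both tables, out of 38087 genes in each. The study sequenced poly-A RNA of leukocytes sorted from injured muscle and of macrophages grown from bone marrow (BMDM). All groups used here came from adult male C57BL/6J mice with no genetic change named, labelled as 2 to 4 months old (8 to 10 weeks in the BMDM protocol). The tibialis anterior muscle was injured with cardiotoxin (CTX), a venom component that destroys muscle fibres. CD45+ cells were then freed with collagenase B, held magnetically and sorted by flow cytometry. The sorted groups were Ly6Chigh F4/80low macrophages at day 2 (3 samples) and day 4 (2), Ly6Clow F4/80high macrophages at day 2 (3) and day 4 (2), and Ly6Ghigh neutrophils at day 1 (3). BMDM were grown with M-CSF, the macrophage growth factor, replated without it for a day, and then left untreated (3 libraries) or given 10 nM resolvin D2 (RvD2), a lipid mediator derived from docosahexaenoic acid, for 4 h (3 libraries). No uninjured muscle and no other dose or time of RvD2 was analysed here.

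Matrix metalloproteinases are zinc enzymes that cut collagens, elastin and other matrix proteins. Most are secreted as inactive precursors, and TIMPs block the active site of the mature enzymes. Urokinase, held at the cell surface by its receptor, turns plasminogen into plasmin, which digests fibrin and can activate several metalloproteinases. In muscle repair, macrophages follow neutrophils into the damaged tissue, remove debris and make way for new fibres, and inflammatory Ly6Chigh cells give rise to Ly6Clow cells.

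Promoters were searched for all of the 10 genes that had an entry, whatever their levels. A RefSeq promoter window (GRCm38.p6, 250 bases before to 50 bases after a start site) was found for 7 of the 10 genes, in 8 windows. Entries were not found for Mmp2, Mmp19 and Plau. The motif TGANTCA, to which AP-1 factors of the Fos and Jun families bind and which reads the same on both strands, was in 3 of the 8 windows, those of Mmp12, Mmp13 and Plaur, which are shown for that reason, against 7.81% of 32851 windows of all genes. It was not in the windows of Mmp14, Timp1, Timp2 and Timp3. Among genes with the motif, Mmp12 and Mmp13 were higher in Ly6Clow than in Ly6Chigh cells at day 4, and Plaur was lower at day 2. Among genes without it, Timp2 was higher in Ly6Clow cells at both days, and Timp1 was lower at day 2. The motif begins 44 bases upstream of the downstream one of the RefSeq starts of Mmp12. It begins 35 bases upstream of the start of Mmp13 and 69 bases upstream of that of Plaur. The 100 bases before each start follow, 5′ to 3′ on the plus strand, with the match in capitals.
Mmp12 (chr9:7347274-7347373): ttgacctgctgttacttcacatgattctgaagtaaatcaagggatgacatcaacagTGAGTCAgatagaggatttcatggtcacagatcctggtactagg
Mmp13 (chr9:7272414-7272513): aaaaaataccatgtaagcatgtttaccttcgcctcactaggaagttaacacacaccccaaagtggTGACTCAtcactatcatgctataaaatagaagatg
Plaur (chr7:24462383-24462482): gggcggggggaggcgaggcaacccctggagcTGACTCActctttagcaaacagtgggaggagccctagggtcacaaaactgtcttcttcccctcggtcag
The PU.1 core GAGGAA, searched on both strands, was in 2 of the 8 windows, against 28.3% of all windows. These were the window of Plaur and the upstream one of the 2 Mmp12 windows, which lacks the AP-1 motif. The cAMP response element TGACGTCA, also searched on both strands, was in 0 of the 8, against 1.79%. Such matches describe letters in a window and do not show binding.

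Values are log2 normalised read counts per gene, as the authors deposited them. Muscle groups are given as the authors' means, so muscle differences carry no error and no test, and their sequencing depth is unknown. Depth in the BMDM libraries was estimated at 9.05 to 14.3 M (mega) gene reads. All 11 macrophage markers in the table, among them Csf1r, Cd68 and Emr1 (F4/80), were above 0 in every group, neutrophils included. Ly6g was at 0 in the 4 macrophage groups and at 7.20 in neutrophils. The 12 neutrophil markers summed to 2803 to 3682 normalised counts in the macrophage groups, against 520584 in neutrophils. Csf3r was at 10.36 to 11.40 and Mmp8 at 7.16 to 10.05 in the macrophage groups, while Camp and Ngp were at 0. Markers of fibroblasts (12 genes) summed to 112 to 325 normalised counts in macrophages at day 2, 29048 in Ly6Chigh cells at day 4 and 2314 in Ly6Clow cells at day 4. In BMDM the same markers summed to 66467 to 96174, led by Col1a1 at a mean log2 level of 14.21, Col1a2 at 14.13 and Bgn at 14.04, while Lum was at 0.29. Within the neutrophil list, BMDM held S100a9 at a mean log2 level of 11.03 and the granule genes Ngp at 10.90 and Ltf at 10.34. Other genes of that list were lower, with Cxcr2 at 4.48, Ly6g at 1.32 and Il1r2 at 0.89.

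Among the metalloproteinases in muscle macrophages, Mmp12, Mmp13 and Mmp14 had their highest level in Ly6Clow cells at day 4, and Mmp19 had its highest in Ly6Chigh cells at day 2. Mmp12, the macrophage elastase, was at a log2 level of 7.23 in Ly6Chigh cells at day 2, 8.51 in Ly6Chigh cells at day 4, 9.28 in Ly6Clow cells at day 2 and 10.34 in Ly6Clow cells at day 4. Each Ly6Clow value lay above both Ly6Chigh values. Mmp13, a collagenase, was at 5.93 and 7.12 in Ly6Chigh cells at day 2 and day 4, and at 6.64 and 8.63 in Ly6Clow cells. Here the order followed the day as well as the subset, since Ly6Chigh cells at day 4 were above Ly6Clow cells at day 2. Because these are bulk samples, fewer cells expressing a gene and less RNA of it per cell cannot be told apart.

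Mmp14 encodes the membrane-anchored metalloproteinase MT1-MMP, which cuts collagen at the cell surface and activates the Mmp2 precursor. Its log2 level was 10.89 in Ly6Chigh cells at day 2, 11.66 in Ly6Clow cells at day 2, 11.76 in Ly6Chigh cells at day 4 and 12.49 in Ly6Clow cells at day 4. Its neighbours in this order at 11.66 and 11.76 were 0.10 apart, and no spread exists to set that against. Mmp19, a secreted enzyme of basement membrane substrates, ran the other way, with 12.76 in Ly6Chigh cells at day 2, 11.54 in Ly6Clow cells at day 2, 11.17 in Ly6Chigh cells at day 4 and 10.75 in Ly6Clow cells at day 4. A gene on the opposite strand, Tmem198b, overlaps exons of Mmp19, and reads of these genes cannot be told apart by strand with the kit named. Tmem198b was at 7.43 to 7.93 in the macrophage groups, under Mmp19 in each.

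Mmp2, the gelatinase that Mmp14 activates, was set apart by day. It was at a log2 level of 3.88 in Ly6Chigh and 3.64 in Ly6Clow cells at day 2, and at 8.64 and 7.40 at day 4. Both values at day 2 lay under 50 normalised counts. Fibroblasts are a main source of Mmp2 in connective tissue, and fibroblast markers were high in the same group: all 12 passed the call rule given below as higher in Ly6Chigh cells at day 4 than at day 2, and 7 of the 7 with sufficient level did so in Ly6Clow cells. In day 1 neutrophils Mmp2 was at 6.87, where fibroblast markers summed to 238 normalised counts, against 325 in Ly6Chigh cells at day 2. The part of these markers in the Mmp2 values was not tested.

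**Figure D1:**
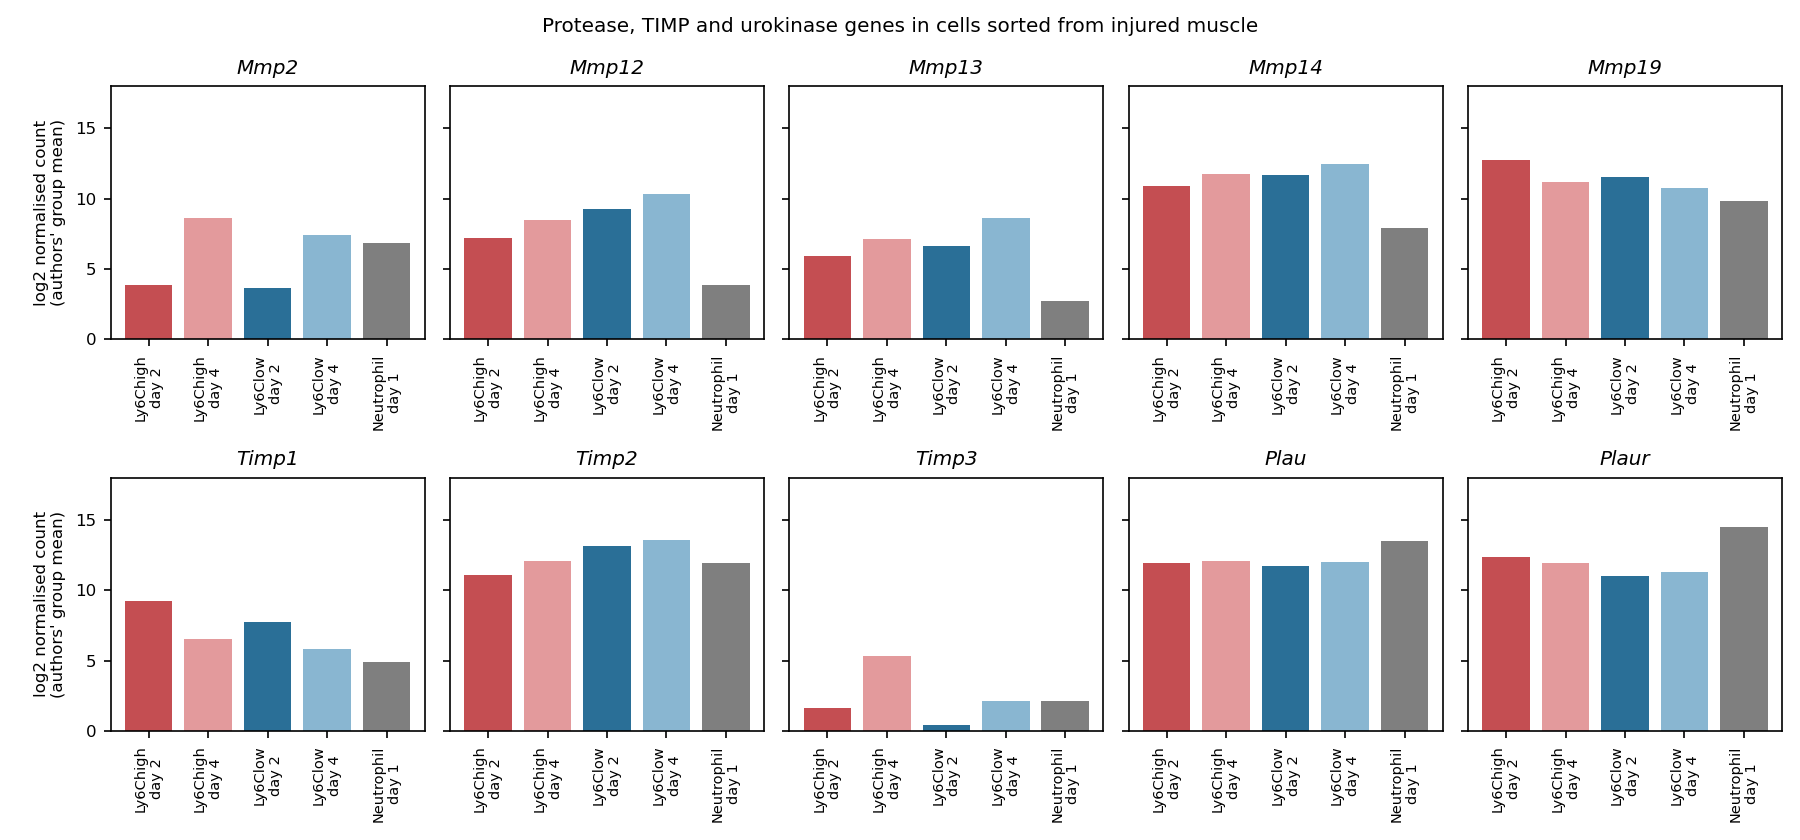
Log2 normalised count of each gene (y axis, authors' group mean, no error available) in the 5 groups sorted from injured muscle (x axis). Mmp12 and Mmp14 are highest in Ly6Clow cells at day 4 (10.34 and 12.49), Mmp19 and Timp1 in Ly6Chigh cells at day 2 (12.76 and 9.22), and Plaur in neutrophils (14.51).

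The TIMPs diverged from each other. Timp1, a secreted inhibitor induced by inflammatory cytokines, was at a log2 level of 9.22 in Ly6Chigh cells at day 2, 7.75 in Ly6Clow cells at day 2, 6.52 in Ly6Chigh cells at day 4 and 5.85 in Ly6Clow cells at day 4. Timp2, which blocks metalloproteinases and also bridges Mmp14 to the Mmp2 precursor, had the opposite order by subset, with 11.06 and 12.04 in Ly6Chigh cells at day 2 and day 4 and 13.11 and 13.54 in Ly6Clow cells. Thus the Timp1 and Timp2 extremes were at opposite ends, Ly6Chigh day 2 against Ly6Clow day 4. Timp3, the inhibitor that binds to matrix, was low in muscle: 1.60 and 5.33 in Ly6Chigh cells at day 2 and day 4, 0.40 and 2.16 in Ly6Clow cells. All of these lie under 50 normalised counts, and the one group above 3 on the log2 scale was also the group with the highest fibroblast markers, whose part was not tested. Timp3 shares exon sequence with Syn3 on the opposite strand, which was at 0.20 to 3.91 in the macrophage groups.

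The urokinase genes varied less among macrophages. Plau was at log2 levels of 11.92 and 12.06 in Ly6Chigh cells at day 2 and day 4 and at 11.69 and 12.03 in Ly6Clow cells, a range too narrow for any call below. Plaur, the receptor that concentrates urokinase on the cell surface, was at 12.32 and 11.91 in Ly6Chigh cells and at 11.02 and 11.27 in Ly6Clow cells. The 2 Ly6Chigh values were above the 2 Ly6Clow values.

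The first comparison asked how the subsets differed at day 2. Ly6Clow cells had more Timp2 and Mmp12 and less Timp1, Plaur and Mmp19 than Ly6Chigh cells. A gene is called here when the ratio of (normalised count + 10) is at least 2-fold and the higher group has at least 50 normalised counts, with no test. Of the 10 genes 8 reached that level, 2 were called higher on the Ly6Clow side and 3 lower, where 5.90% of 11275 genes were called higher and 5.46% lower. Timp2 was 4.13-fold higher (log2 ratio 2.05) and Mmp12 3.94-fold higher (1.98). Timp1 was 2.70-fold lower (-1.43), Plaur 2.46-fold lower (-1.30) and Mmp19 2.33-fold lower (-1.22). Mmp14 (0.77), Mmp13 (0.63) and Plau (-0.22) were under 2-fold. Of markers of other cells with sufficient level, 3 of 3 fibroblast (median log2 ratio -1.16) and 2 of 3 endothelial markers (-1.19) were called lower in Ly6Clow cells. Of 7 neutrophil markers 1 was called higher and 1 lower (0.56). The part of these markers in the day 2 ratios was not tested.

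At day 4 the subsets differed in Mmp12, Timp2, Mmp13 and Mmp2. Mmp12 was 3.49-fold (log2 ratio 1.80), Timp2 2.83-fold (1.50) and Mmp13 2.71-fold (1.44) higher in Ly6Clow cells, and Mmp2 was 2.28-fold lower (-1.19). Of the 10 genes 9 reached the level, with 3 called higher against 2.98% of 11764 genes, and 1 lower against 4.22%. Mmp14 (0.72), Plaur (-0.64), Timp1 (-0.59), Mmp19 (-0.42) and Plau (-0.03) were under 2-fold. Mmp2 stood on the side of the fibroblast markers, since 12 of 12 were called lower in Ly6Clow cells (median log2 ratio -3.48, all genes 0.01). Also called lower in Ly6Clow cells were 6 of 7 dendritic cell (-2.41), 5 of 5 T and NK cell (-3.36) and 4 of 4 endothelial markers (-1.76), and their part was not tested. For Timp3 the ratio was -1.79 with both groups under the level, and it was called lower when the level was set at 20. Whether the subset ratios differed between the days was not tested, since no replicate values exist.

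The next question was how each subset differed between the days. In Ly6Chigh cells, Mmp2 was 16.6-fold (log2 ratio 4.05), Mmp12 2.33-fold (1.22) and Mmp13 2.11-fold (1.08) higher at day 4, and Timp1 was 5.96-fold lower (-2.58) and Mmp19 3.01-fold lower (-1.59). Thus 3 of 10 genes were called higher (9.67% of 11618 genes) and 2 lower (3.74%), with 9 at sufficient level. Timp2 (0.98), Mmp14 (0.87), Plaur (-0.40) and Plau (0.15) were under 2-fold, and Timp3 had a ratio of 1.94 under the level (called at a level of 20). Timp2 just passed 2-fold under equal totals (1.06) and median-ratio scaling (1.03), and Mmp13 did not pass when 50 was added in place of 10 (0.77). Markers of other cells were also called higher in Ly6Chigh cells at day 4: 12 of 12 fibroblast (median log2 ratio 5.64), 7 of 7 dendritic cell (3.01), 5 of 5 T and NK cell (3.50), 3 of 4 endothelial (1.31) and 2 of 3 skeletal muscle markers (2.53). In Ly6Clow cells, Mmp2 was 7.98-fold (3.00), Mmp13 3.71-fold (1.89) and Mmp12 2.06-fold (1.04) higher at day 4, and Timp1 was 3.33-fold lower (-1.74). That made 3 of 10 called higher (8.08% of 11560 genes) and 1 lower (3.24%). Mmp14 (0.83), Mmp19 (-0.79), Timp2 (0.44), Plau (0.34) and Plaur (0.26) were under 2-fold, and Mmp12 came just under it when 50 was added in place of 10 (0.999). Called higher beside them were 7 of 7 fibroblast (median log2 ratio 3.79) and 6 of 6 skeletal muscle markers (2.93). The part of these markers in the differences between the days was not tested. The 4 comparisons share groups with each other, so their lists of called genes are not independent.

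**Figure D2:**
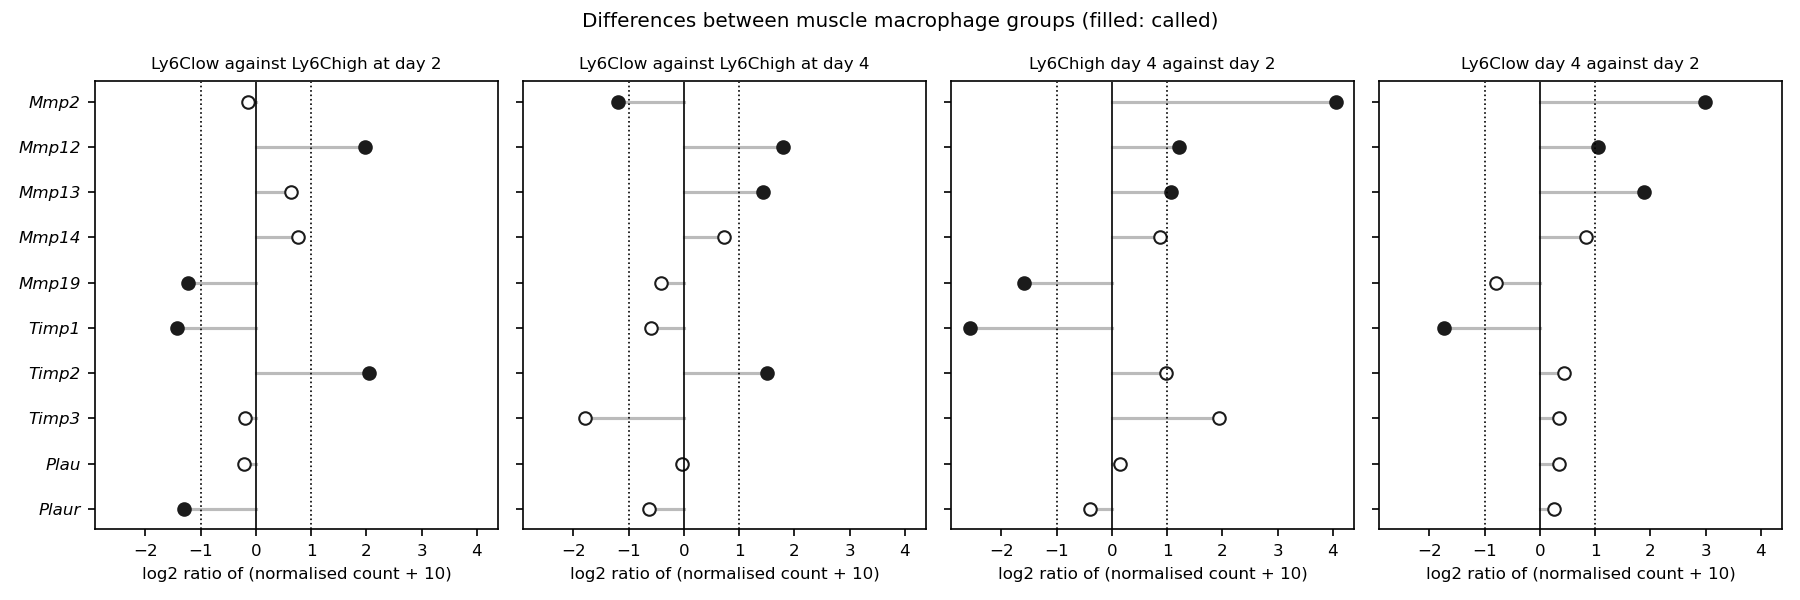
Log2 ratio of (normalised count + 10) for each gene (x axis) in the 4 comparisons of macrophage groups, with filled points for called genes and dotted lines at 2-fold. Mmp12 lies to the right in all 4 panels (1.04 to 1.98) and Timp1 to the left in all 4 (-0.59 to -2.58); Timp3 is open since it lay under 50 normalised counts in every group.

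Neutrophils at day 1 had higher Plaur and Plau than every macrophage group and lower Mmp14, Mmp12 and Mmp13. Plaur was at a log2 level of 14.51 and Plau at 13.49, above all 4 macrophage groups. Mmp14 was at 7.89, Mmp12 at 3.84 and Mmp13 at 2.70, below all 4. Against the nearest macrophage group Plaur was 4.56-fold and Plau 2.69-fold higher, while Mmp14 was 7.68-fold, Mmp12 6.59-fold and Mmp13 4.30-fold lower. Thus 2 of 10 genes were called higher (22.7% of 12837 genes) and 3 lower (18.8%), so the counts are close to what all genes show. Mmp19 at 9.86 and Timp1 at 4.88 lay under the macrophage range by less than 2-fold, and Mmp2 at 6.87, Timp2 at 11.96 and Timp3 at 2.12 lay within it. Cell type and day cannot be told apart here. Summed normalised counts were 26.0 M in neutrophils against 11.9 to 12.8 M in macrophages. With equal totals 19.9% of called genes of all kinds were higher, against 54.7% as deposited, and the median gene stood at -0.57. Plau then had a log2 ratio of 0.30 and was not called, and Mmp19 (-1.90) and Timp1 (-1.53) were called lower. Mmp19 was also called under median-ratio scaling (-1.13), and Mmp13 was not when 50 was added in place of 10 (-0.97).

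Levels of different genes were compared per kilobase of annotated exon. In Ly6Chigh cells at day 2 the most abundant of the 10 were Mmp19 (1964 normalised counts per kb), Plaur (1951) and Plau (1633). In Ly6Clow cells at day 4 they were Timp2 (3066), Plau (1770) and Mmp14 (965). In neutrophils Plaur reached 8916 and Plau 4864, with Timp2 next at 1020. The leading metalloproteinase was Mmp19 in Ly6Chigh cells at day 2, with 84.3% of the metalloproteinase sum. Mmp19 also led in Ly6Clow cells at day 2 (55.7%, Mmp14 35.9%) and in Ly6Chigh cells at day 4 (44.8%, Mmp14 40.1%). Only in Ly6Clow cells at day 4 did Mmp14 lead, with 52.8%, and Mmp19 made up 26.6% there. The TIMP sum was 55.2% Timp1 and 44.8% Timp2 in Ly6Chigh cells at day 2, and 97.9% Timp2 in Ly6Clow cells at day 4. The exon union of Mmp12 is 7.24 kb, longer than that of any other of the 5 metalloproteinases, which lowers its value per kb.

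The ratio of the metalloproteinase sum to the TIMP sum per kb was 1.91 in Ly6Chigh cells at day 2, 1.22 in Ly6Chigh cells at day 4, 0.603 in Ly6Clow cells at day 2, 0.584 in Ly6Clow cells at day 4 and 0.324 in neutrophils. Of the muscle groups, Ly6Chigh cells were above 1 and the others below it. The ratio leaves out the 18 other metalloproteinases, which summed to 79887 normalised counts in neutrophils, led by Mmp9, against 564 to 1690 in the macrophage groups, so it describes these 5 enzymes and not the family. This order of the macrophage groups rested on Timp2: with Timp2 left out the ratio was 3.46 in Ly6Chigh cells at day 2 and 27.9 in Ly6Clow cells at day 4, the reverse direction. These are ratios of transcripts, and enzyme activity was not measured.

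**Figure D3:**
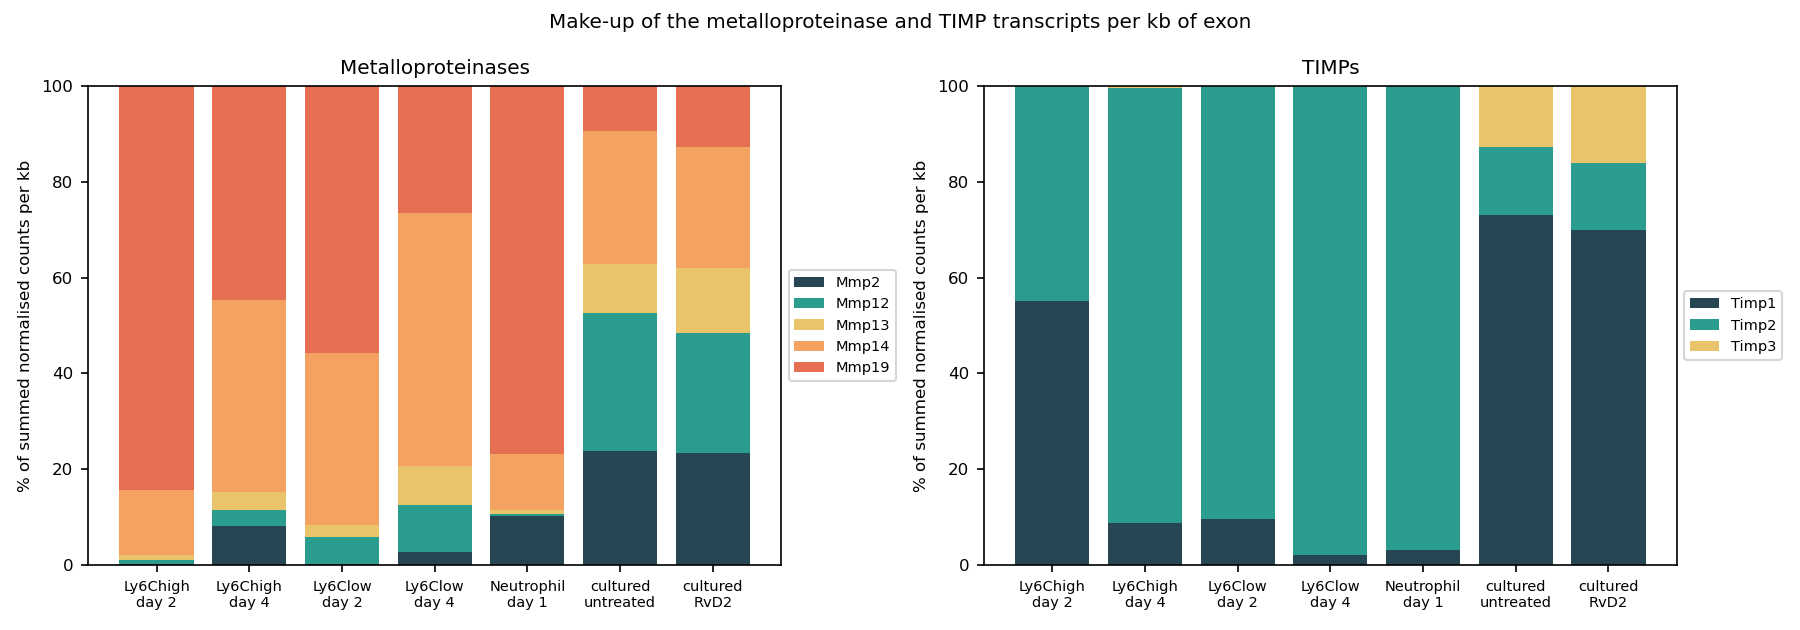
Share of each gene (y axis, % of the summed normalised counts per kb of exon) within the 5 metalloproteinases (left) and the 3 TIMPs (right), for each muscle group and for the means of untreated and RvD2-treated BMDM. Mmp19 takes up 84.3% and 26.6% of the metalloproteinase bar in Ly6Chigh day 2 and Ly6Clow day 4, and Timp2 fills 97.9% of the TIMP bar in the latter, while Timp1 leads in BMDM.

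Mmp12 and Mmp13 belong to a cluster of 10 metalloproteinase genes on chromosome 9 (GRCm38/mm10, GENCODE M21), from Mmp13 at chr9:7272514-7283331 and Mmp12 at chr9:7344381-7369499, 61.0 kb apart, to Mmp7. Only 4 of the 10 exceeded a log2 level of 5 in a macrophage group, the others being Mmp8 and Mmp27. Mmp27 was at 4.67 and 6.23 in Ly6Chigh cells at day 2 and day 4, at 7.87 and 8.46 in Ly6Clow cells and at 1.41 in neutrophils, so its highest and lowest groups were those of Mmp12 and Mmp13. It was called higher in Ly6Clow cells at both days, 6.87-fold and 4.24-fold. Mmp8, the neutrophil collagenase, was at 9.33 and 7.16 in Ly6Chigh cells, 10.05 and 7.62 in Ly6Clow cells and 10.60 in neutrophils, and was highest at the earlier times. Mmp1a, Mmp1b, Mmp7 and Mmp20 were listed at 0 in all 5 groups, and Mmp1b, which overlaps exons of Mmp12 on the other strand, was also at 0 in BMDM.

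Other genes of these pathways were read from lists of related genes. Among 18 other metalloproteinases, those with sufficient level numbered 4 or 5 in each comparison. Mmp27 was the single one called between the subsets, 1 of 4 at day 2 (median log2 ratio 0.76, all genes -0.00) and 1 of 5 at day 4 (0.44, all genes 0.01). Between the days Mmp8 and Mmp9 (gelatinase B) were lower and Mmp25 higher at day 4, 4.26-fold, 2.47-fold and 3.16-fold in Ly6Chigh cells and 5.16-fold, 3.21-fold and 4.62-fold in Ly6Clow cells. Of 7 neutrophil markers, a list that includes Mmp8 and Mmp9, 3 were called lower and 1 higher in Ly6Chigh cells (median -0.95) and 5 lower in Ly6Clow cells (median -1.37), with S100a8 2.87-fold and 4.68-fold lower. The part of neutrophil RNA in these values was not tested. In neutrophils Mmp9 was at a log2 level of 16.23, 255-fold above the nearest macrophage group, and Mmp25, a membrane-anchored enzyme of leukocytes, was 9.87-fold higher.

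In the plasminogen list, 1 of 12 genes was called higher and 2 lower in the Ly6Clow subset at day 2 (median log2 ratio -0.51). Serpine2, a protease inhibitor that blocks urokinase and thrombin, was 4.95-fold higher in Ly6Clow cells at day 2 and 2.87-fold higher at day 4, and its log2 levels of 2.66 and 6.83 in Ly6Chigh cells and 6.15 and 8.43 in Ly6Clow cells put it highest where Timp2 and Mmp12 were. Sorl1, a receptor that takes up urokinase complexes, was 2.90-fold lower in Ly6Clow cells at day 2. At day 4, 1 of 14 genes was called higher and 2 lower (median -0.24), with the collagen receptor Mrc2 6.62-fold and the tissue plasminogen activator Plat 2.76-fold lower. Between the days 3 of 14 were called higher and 6 lower in Ly6Chigh cells (median -0.70). The largest ratios were those of Mrc2, 14.8-fold higher, and Serpine2, 7.57-fold higher. S100a10, a plasminogen-binding annexin partner, was next, 4.58-fold lower. In Ly6Clow cells 3 of 12 were higher and 3 lower (median -0.50), with Serpine2 4.39-fold and Sorl1 2.93-fold higher and Eno1 2.63-fold lower. In neutrophils 5 of 16 were higher and 5 lower (all genes 22.7% and 18.8%), with the tissue factor gene F3 26.5-fold and Sorl1 13.3-fold higher and the clot-stabilising F13a1 15.7-fold lower.

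Lysosomal proteases accompanied Timp2 and Mmp12 on the Ly6Clow side. Of the listed cysteine, serine and aspartic proteases, 3 of 6 were called higher and 0 lower at day 2 (median log2 ratio 1.08). At day 4, 3 of 8 were called higher and 1 lower (median 0.38). Ctsl was 2.52-fold and 3.65-fold and Ctsd 3.63-fold and 2.98-fold higher at day 2 and day 4, and Dpp4 was 6.81-fold lower at day 4. Of the ADAM and ADAMTS proteases 0 of 7 were called at day 2 and 4 of 12 lower at day 4 (median 0.10), led by Adamts2 (6.69-fold), Adamts1 (6.36-fold) and Adam12 (4.11-fold). Those 3 genes led the 5 of 11 called higher in Ly6Chigh cells at day 4 against day 2 (median 0.72), at 13.1-fold, 6.85-fold and 8.69-fold, with 2 of 11 lower, in the group with high fibroblast markers, whose part was not tested. In Ly6Clow cells between the days 3 of 8 were higher and 1 lower (median 0.35), with Adam33 3.19-fold higher and Adam8 2.84-fold lower. Of 7 matrix substrates at day 2, the Ly6Clow subset had 2 lower and 1 higher (median -0.83). Vcan was 66.8-fold and Thbs1 3.15-fold lower, and Spp1 6.13-fold higher. Of 14 matrix substrates, the Ly6Clow subset at day 4 had 9 lower and 1 higher (median -2.14). In Ly6Chigh cells 7 of 14 were higher at day 4 than at day 2 (median 1.27), led by Tnc (26.3-fold) and Nid1 (20.1-fold), with 4 of 14 lower. Ly6Chigh cells at day 4 had high fibroblast markers, whose part in the matrix substrate ratios was not tested. Between the days in Ly6Clow cells 1 of 8 was higher and 4 were lower (median -1.19), led by fibronectin (Fn1, 9.73-fold lower). Activators and inhibitors had 1 of 4 higher (Cd151, 2.01-fold) and 1 lower (Cd44, 2.32-fold) at day 2 and 0 of 4 called at day 4.

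For each gene the 3 nearest profiles over the 5 muscle groups were taken from 12837 genes, by the Euclidean distance of centred log2(normalised count + 10). Nearest to Mmp12 was Igfbp4 (distance 0.46), to Mmp13 Smagp (0.50), to Mmp14 Pdgfa (0.27), to Mmp19 Fam20a (0.23) followed by the chemokine gene Ccl2 (0.24), and to Mmp2 Enpp4 (0.99). Nearest to Timp1 was Gja1 (0.52), to Timp2 Fer (0.28), to Timp3 Tspan9 (0.31) followed by Il6 (0.33), to Plau Gm6395 (0.06) and to Plaur Csf2rb (0.22). With 5 group means, such nearness is a description.

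BMDM and muscle were normalised in separate tables, so their levels are set side by side with no test. Timp3 was at a mean log2 level of 13.63 ± 0.23 (SD, n = 3) in untreated BMDM, against at most 5.33 in muscle macrophages. Timp1 was at 12.95 ± 0.02 (SD, n = 3) against 5.85 to 9.22, and Mmp2 at 10.40 ± 0.04 (SD, n = 3) against 3.64 to 8.64. These 3 genes lay in BMDM above every muscle macrophage group. Mmp12 at 11.78 ± 0.13 (SD, n = 3) and Mmp13 at 8.86 ± 0.04 (SD, n = 3) also lay above each, while Mmp14 at 11.45 ± 0.07 (SD, n = 3) and Timp2 at 12.71 ± 0.07 (SD, n = 3) lay within the muscle range. Mmp19 at 9.11 ± 0.13 (SD, n = 3), Plau at 10.87 ± 0.12 (SD, n = 3) and Plaur at 10.35 ± 0.09 (SD, n = 3) lay below every one. The high collagen genes of BMDM stand beside Timp3, Timp1 and Mmp2, and their part in these levels was not tested. Per kb, Timp1 (8938), Timp2 (1720) and Timp3 (1565) led in untreated BMDM, and the metalloproteinase to TIMP ratio was 0.138 ± 0.003 (SD, n = 3) in untreated and 0.129 ± 0.015 (SD, n = 3) in RvD2-treated cells, with groups that overlapped. Without the length correction it was 0.297, 0.339 and 0.318 in untreated and 0.251, 0.245 and 0.274 in RvD2-treated libraries, and those groups did not overlap. This ratio was not tested.

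The last comparison asked whether RvD2 changed these genes in BMDM within 4 h. Mmp19 rose and was the single gene of the 10 called in a limma fit across 15239 genes (adjusted p under the threshold of 0.05); 1 of 10 was called higher against 0.794% of all genes, and 0 of 10 lower against 1.06%. At an unadjusted p below 0.05, limma put 2 of the 10 higher and 1 lower, against 7.15% and 8.41% of all genes. In 2 of the 10, Mmp19 and Timp3, all RvD2 libraries lay above all untreated libraries, against 9.29% of all genes, and in 0 of the 10 all lay below, against 11.7%. The median log2 fold change of the 10 was 0.04, against -0.00 over all genes.

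Mmp19 was at a log2 level of 8.96, 9.18 and 9.20 in untreated libraries 1 to 3 and at 9.53, 9.55 and 9.65 with RvD2. All RvD2 values were higher than all untreated values, and the lowest was untreated library 1. The log2 fold change was 0.46 (SE 0.08), a 1.38-fold rise (95% interval 1.22 to 1.56) with an adjusted p of 0.0252 by limma with Benjamini-Hochberg adjustment. The call did not hold in 4 of the 6 fits that each left out a library: adjusted p was 0.0590 without untreated library 1, 0.0755 without untreated library 2, 0.0810 without RvD2 library 2 and 0.115 without RvD2 library 3. The overlapping Tmem198b had a log2 fold change of 0.11 (SE 0.11, adjusted p = 0.700 by limma). Summed macrophage markers were 104051, 111181 and 134242 normalised counts in the untreated and 112192, 122882 and 139700 in the RvD2 libraries, lowest in the library with the lowest Mmp19 and highest in that with the highest, and their part was not tested. The list holds Cd14, which itself rose with RvD2 (log2 fold change 1.11, adjusted p = 0.0237 by limma).

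Timp3 was at 13.88, 13.56 and 13.43 in the untreated and at 14.27, 13.99 and 13.90 in the RvD2 libraries. The groups did not overlap, although untreated library 1 came within 0.02 of RvD2 library 3. The log2 fold change was 0.43 (SE 0.13; 1.35-fold, 95% interval 1.10 to 1.65) and was not called, with an adjusted p of 0.149 by limma. Fibroblast markers summed to 84490.5, 73139.6 and 77478 normalised counts in the untreated and to 96174, 66467 and 76424 in the RvD2 libraries. Library 1 of each group had both the highest sum and the highest Timp3. Between libraries 2 and 3 of each group the order was opposite, with the lower sum and the higher Timp3 in library 2. The part of these markers in the Timp3 values was not tested. Of 11 fibroblast markers 0 were called by limma, with 1 at an unadjusted p below 0.05.

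Mmp13 showed the widest scatter of the 10. It was at 8.88, 8.88 and 8.81 in the untreated and at 9.27, 7.93 and 9.90 in the RvD2 libraries, so the SD was 0.04 without and 1.01 with RvD2. The RvD2 values fell on both sides of the untreated ones. Its log2 fold change of 0.17 (SE 0.40) had an adjusted p of 0.900 by limma, and the 95% interval from 0.597-fold to 2.12-fold leaves the direction undetermined.

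Mmp12 was at 11.76, 11.91 and 11.65 in the untreated and at 11.54, 11.68 and 11.54 in the RvD2 libraries. The groups overlapped by 1 library on each side. The log2 fold change of -0.19 (SE 0.07, 95% interval 0.778-fold to 0.986-fold) was not called (adjusted p = 0.268 by limma). Mmp14 was at 11.51, 11.46 and 11.38 untreated and at 11.57, 11.16 and 11.17 with RvD2, with groups that overlapped through RvD2 library 1 and a log2 fold change of -0.15 (SE 0.11).

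For the other genes the 95% intervals were narrow and spanned no change: Mmp2 from 0.870-fold to 1.11-fold, Timp1 from 0.945-fold to 1.12-fold, Timp2 from 0.982-fold to 1.19-fold, Plau from 0.845-fold to 1.04-fold and Plaur from 0.936-fold to 1.14-fold. Timp1, for example, was at 12.95, 12.98 and 12.93 untreated and at 12.99, 13.05 and 12.93 with RvD2. Their adjusted p-values by limma ran from 0.434 for Timp2 to 0.921 for Mmp2, which does not show that they were the same.

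**Figure D4:**
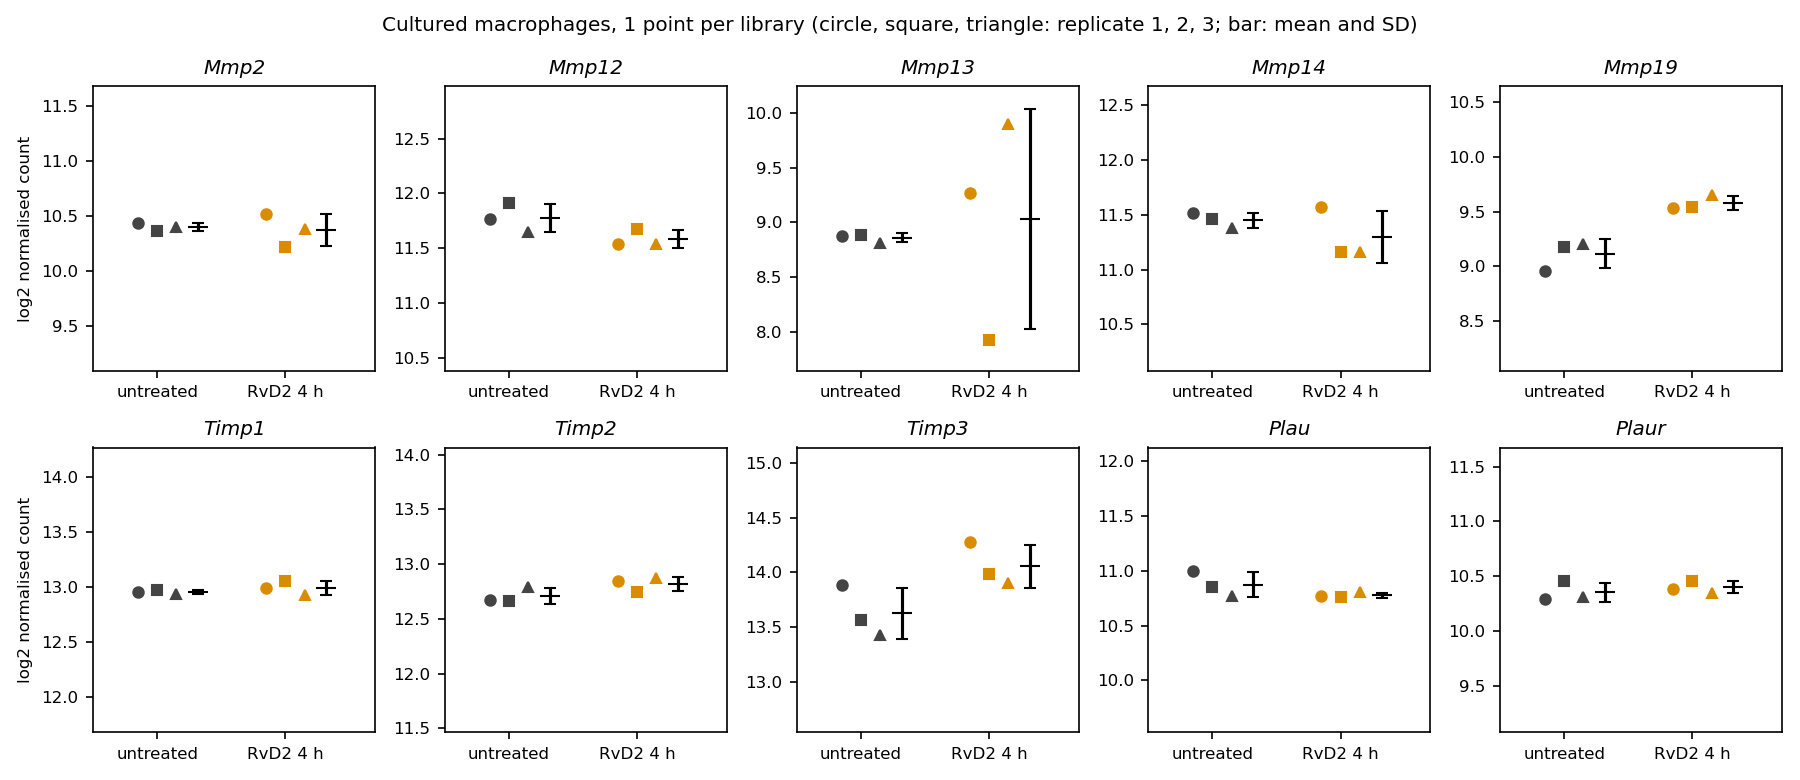
Log2 normalised count of each gene (y axis, same span of 2.6 units in every panel, not starting at 0) in 3 untreated and 3 RvD2-treated BMDM libraries, with the mean and SD at the right of each group. Mmp19 and Timp3 show no overlap between groups, and the RvD2 values of Mmp13 spread from 7.93 to 9.90.

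**Figure D5:**
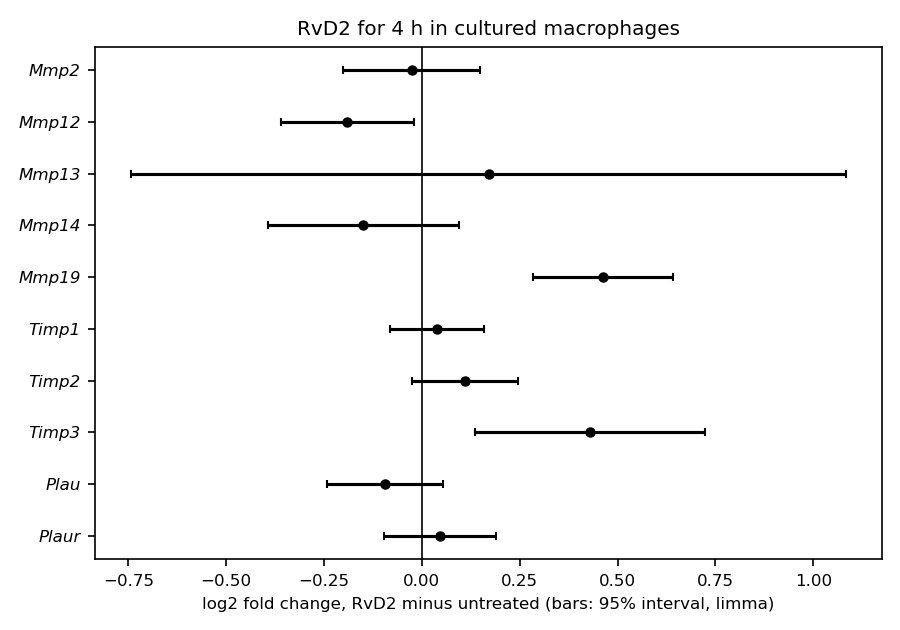
Log2 fold change of RvD2 minus untreated BMDM (x axis) with 95% intervals from limma for the 10 genes (y axis). The interval of Mmp19 (0.28 to 0.64) lies to the right of 0, and that of Mmp13 is the widest (-0.74 to 1.08).

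Among related genes in BMDM, limma called 1 in each of 3 lists, where 0.794% of all genes were called higher and 1.06% lower. Calls over all genes fell from 283 to 49 without the mean-variance trend and to 79 without RvD2 library 3. Whether the 3 calls that follow held in those fits is not given here. Adam12, a membrane-anchored protease of the ADAM family, fell from 9.84, 9.82 and 9.68 to 9.41, 9.37 and 9.28 (log2 fold change -0.43, adjusted p = 0.0190 by limma), 1 of 15 in its list. Thbd, the thrombomodulin gene, rose from 9.85, 9.92 and 9.97 to 10.16, 10.30 and 10.35 (0.36, adjusted p = 0.0381 by limma), 1 of 16 in the plasminogen list. Thbs1, encoding the matrix protein thrombospondin 1, rose from 16.13, 16.03 and 16.00 to 16.58, 16.47 and 16.67 (0.52, adjusted p = 0.0162 by limma), 1 of 14 matrix substrates. In each of these 3 the groups did not overlap. Called by limma were 0 of 10 other metalloproteinases (0 at an unadjusted p below 0.05) and 0 of 7 activators and inhibitors (1 at that level). Of the cysteine, serine and aspartic proteases, 0 of 10 were called (0 at that level). The list medians ran from -0.07 to 0.12, against -0.00 over all genes.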

How the data were processed

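Values in the 2 deposited tables are normalised read counts on a log2 scale, with those under 1 listed at 0. The submitters' processing notes name TopHat2 2.0.7, DESeq and mm10. Which annotation was counted is not given in the sources. The BMDM table has 1 column per library (6), and the 5 muscle columns are the authors' group means. Labels give 25 samples in 9 groups; 2 groups with 6 samples (blood monocytes, and Ly6Chigh macrophages of day 1) were not analysed. The library kit does not mark strand.

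The 10 genes and all lists were chosen with earlier results of these data known. The RvD2 comparison used limma 3.58.1 (R 4.3.3) and genes whose mean normalised count reached 10, with a mean-variance trend, two-sided, Benjamini-Hochberg adjusted over all genes, threshold 0.05. Whether samples came from different animals or cultures is not labelled, so p-values measure only the spread between samples, which may be technical. Muscle ratios used normalised counts recovered from the log2 values plus 10, which understates differences of low genes, and a call needed 2-fold and a level of 50. Exon lengths and positions came from GENCODE M21, which held 36308 of 38087 identifiers (95.3%), and promoters from RefSeq. Depth of the BMDM libraries was estimated from the commonest low value, taken as 1 read, or as 2 reads in untreated library 2. It was 10.1, 14.3 and 9.05 M (mega) in untreated and 9.12, 9.78 and 11.9 M in RvD2 libraries. Reads are not independent molecules, so depth bears on counting error only. In 2 cells of the muscle table a date stood for a value and was treated as missing. From each list, the text names up to 3 called genes with the largest ratio (BMDM: smallest adjusted p). The fit was also run on simulated data, with differences larger than that of Mmp19 between RvD2-treated and untreated BMDM. How the fit performs on a difference as small as that of Mmp19 was not tested. Alternatives were the pseudocount, level, fold, scaling, filter, trend, replicate block and each library left out. Python 3.11.15, numpy 2.4.6, pandas 2.3.3 and matplotlib 3.10.9 were used.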

Additional observations from a re-analysis of the deposited data

How the results depend on the processing

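Of the RvD2 results, genes called numbered 283 in all and 1 of the 10 genes was called. Without the low-value filter these were 137 and 0, without the mean-variance trend 49 and 0, and with each library left out in turn 79 to 290 and 0 to 1. With the replicate number as a block they were 1066 and 3 (Mmp19, Timp3 and Mmp12, adjusted p = 0.00318, 0.000321 and 0.0322 by limma). The numbers are not known to pair the samples: deviations of same-numbered libraries correlated at 0.29, 0.02 and 0.05, and untreated library 2 correlated best with RvD2 library 3 (0.19). Mmp19 was called in 5 of 11 alternatives (log2 fold change 0.39 to 0.51, adjusted p 0.00318 to 0.115), and its adjusted p was 0.0678 without the filter and 0.108 without the trend. In muscle, a 3-fold limit left 2 of 5 called genes between the subsets at day 2, 1 of 4 at day 4 and 3 of 5 in Ly6Chigh cells between the days. In Ly6Clow cells between the days it left 2 of 3 called higher and 1 of 1 lower. Over all genes, 505 of 1281 calls were left between the subsets at day 2 and 367 of 848 at day 4. Between the days, 569 of 1123 higher and 105 of 435 lower were left in Ly6Chigh cells, and 390 of 934 and 51 of 375 in Ly6Clow cells. Equal totals put the median gene at -0.09 between the subsets at day 4. The metalloproteinase to TIMP ratio in Ly6Chigh cells at day 2 was 3.27 times that in Ly6Clow cells at day 4, and 0.124 times without Timp2. No paired analysis was possible for muscle because the columns are group means. The muscle table gives no depth or spread, so small differences there cannot be judged.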
